A study of Mus musculus with 6 samples.

Results

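The 4 libraries of muscle satellite cells labelled as knockouts of an H3K27 demethylase were 2 of Jmjd3 KO and 2 of Utx KO. These were pooled and set against the 2 Tdt Control libraries, with equal weight for each knockout genotype. Genes were described where all 4 knockout libraries lay above, or all 4 below, both control libraries in log2 CPM, where CPM are reads scaled by the effective library size and the prior count is 2. This held for 3194 of the 17084 genes tested (18.7%), with 1594 higher and 1600 lower in the knockouts. With 2 control libraries, many genes can meet this rule through the order of the libraries alone. The count is therefore not a count of knockout effects. RNA was measured by bulk sequencing in satellite cells, the stem cells that rebuild muscle fibres. They were sorted by fluorescence from the tibialis anterior and gastrocnemius of adult C57BL/6 mice, 30 h after injury with cardiotoxin, a venom toxin that destroys fibres. All groups share this strain, injury and time. They differ in genotype: Jmjd3 KO cells carry a knockout of JMJD3 (gene Kdm6b), Utx KO cells a knockout of UTX (gene Kdm6a), and Tdt Control cells are named with neither. The series title calls the knockouts JMJD3scKO and UTXscKO and the remaining cells wild-type. The promoter that drove each deletion, the deleted exons, what Tdt stands for, the sex of the mice and the number of animals behind a library are not given in the sources used here.

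UTX and JMJD3 remove methyl groups from H3K27, a site on histone H3 whose trimethylation by the Polycomb complex PRC2 marks silent genes. UTX is a subunit of the COMPASS-like complexes that methylate H3K4 at enhancers, and JMJD3 is induced by inflammatory signals in several cell types. Satellite cells express Pax7, leave quiescence after injury, and pass through a phase of growth and matrix remodelling before they divide and differentiate.

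Most genes on one side of both controls moved little. Their median log2 fold change was 0.23 for the 1594 higher genes (9.33% of the genes tested) and -0.17 for the 1600 lower genes (9.37%), and 70 genes in each direction reached 2-fold. A gene was called when its adjusted p (Benjamini-Hochberg, over the 17084 genes) in edgeR's quasi-likelihood test was under 0.05, and these are the genes said to rise or fall. There were 181 called genes (1.06%), 97 higher (0.568%) and 84 lower (0.492%). Of these, 146 (0.855%) also had all 4 knockout libraries on one side. They were 83 higher (0.486%) and 63 lower genes (0.369%), and their median log2 fold changes were 0.45 and -0.45. The other 35 called genes overlapped the controls, and in all 35 the knockouts themselves differed. Between Jmjd3 KO and Utx KO, 1370 genes (8.02%) were called in the same fit. Among the 83 higher genes 34 differed between the knockouts, 21 of them with the larger rise in Jmjd3 KO, and among the 63 lower genes 25 differed, 15 of them with the larger fall in Utx KO.

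**Figure D1:**
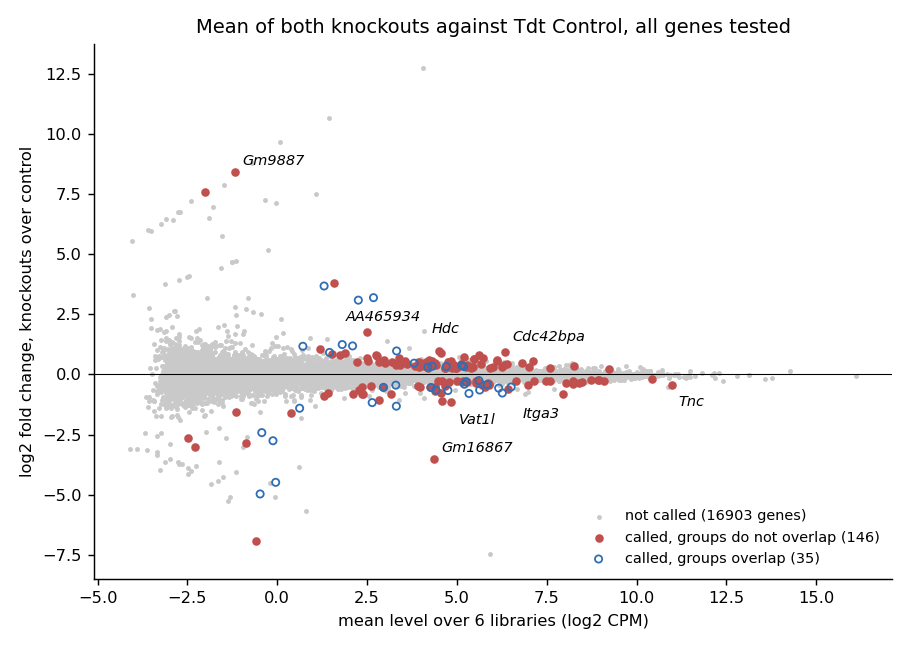
Log2 fold change of the pooled knockouts over Tdt Control (y axis) against the mean level over the 6 libraries (x axis, log2 CPM), 1 point per gene tested. Filled points are the 146 called genes whose groups do not overlap, open points the 35 called genes whose groups overlap, and genes not called are grey. Most called genes lie within 1 log2 unit of 0. The fold changes of genes with no control reads, such as Gm9887, depend on the default prior count of edgeR's fit. That is a separate setting from the prior count of 2 used for log2 CPM in the rule.

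The number of called genes depended on the fit. It was 40 (17 higher, 23 lower) with offsets for transcript length, 3 with the knockouts treated as 1 group, and between 21 and 83 when 1 library was left out: 37 and 83 without replicate 1 or 2 of Jmjd3 KO, 21 and 35 without replicate 1 or 2 of Tdt Control, and 68 and 61 without replicate 1 or 2 of Utx KO. Of the called genes named here, those that stayed called with length offsets were Gm16867, Gm20400, Vat1l, Hist4h4, Hmga2, Mgll, Sox11, Itga3, Id1, Tnc, Efnb2, Hist1h2bj, Hist1h2bc, Hist2h2bb, Hist1h1a, H19, Cxcl1, Rnf122, Ier3, Ddit4, Borcs8, Cdc42bpa, Hdc, AA465934, Eif5al3-ps, Gm7901, Gm9347 and Gm9887, and the others lost the call there. Whether the replicates are separate animals is not in the labels, so the p-values measure a spread between libraries that may be technical. Totals ran from 53750675 to 77675388 estimated reads per library. Correlations of log2 CPM across genes, which are not independent replicates, were 0.990 to 0.991 within a genotype and 0.986 to 0.989 between a knockout and a control library. In bulk RNA, fewer cells of a type and less RNA per cell cannot be told apart.

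The targeted genes were read first. Kdm6a, which encodes UTX, stood at 32.8 and 34 CPM in Tdt Control, 30.3 and 32.4 in Jmjd3 KO, and 7.68 and 7.38 in Utx KO. It was low in both Utx KO libraries, whereas Jmjd3 KO lay just under the controls. The pooled log2 fold change was -1.12 ± 0.05 (edgeR adjusted p = 0.000225), made up of -0.09 in Jmjd3 KO and -2.15 in Utx KO. With offsets for transcript length it was -0.89 and not called (adjusted p = 0.119). Kdm6b, which encodes JMJD3, stood at 29.9 and 22.7 CPM in Tdt Control, 15.9 and 16.5 in Jmjd3 KO, and 23 and 22.2 in Utx KO. It was lowest in both Jmjd3 KO libraries, and the Utx KO libraries overlapped the controls. Its pooled log2 fold change of -0.46 ± 0.10 did not pass the test (adjusted p = 0.080). Reads outside the deleted part still count towards a gene, so these levels do not measure intact transcripts. Uty, the Y-linked relative of UTX, had a pooled value of 0.07 ± 0.15 (adjusted p = 0.87), whose sign turned with length offsets and without Jmjd3 KO replicate 1 or Tdt Control replicate 1. Uty was -0.33 in Jmjd3 KO and 0.47 in Utx KO, and these differed by -0.80 ± 0.18 (adjusted p = 0.035). Of 34 genes of H3K27 methylation and demethylation, Kdm6a was called, 5 lay on one side higher and 6 lower (shares over all genes tested: 1.06% called, 9.33% higher and 9.37% lower), and the median log2 fold change was 0.01 against -0.01 over all genes tested. None of 16 COMPASS partners of UTX was called by edgeR, 1 had an unadjusted p under 0.05, and DESeq2 called 0.

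The integrin subunit Itga3 fell and the kinase Cdc42bpa rose by a like amount in both knockouts. Itga3, a subunit of a laminin receptor, stood at 114 and 110.3 CPM in Tdt Control, 69.4 and 73.8 in Jmjd3 KO, and 77.1 and 73.9 in Utx KO. All 4 knockout libraries lay well below both controls and close to each other. It fell by 0.61 ± 0.05 on the log2 scale, 1.52-fold lower (adjusted p = 0.00547), with -0.64 in Jmjd3 KO and -0.57 in Utx KO. Cdc42bpa, a kinase that acts below the small GTPase Cdc42 on actin and myosin, stood at 51.2 and 49.1 CPM in Tdt Control, 89.8 and 101 in Jmjd3 KO, and 102 and 88.6 in Utx KO. Its lowest knockout library was above both controls by a wide margin, and it rose by 0.93 ± 0.08, 1.9-fold (adjusted p = 0.00604), with 0.93 in Jmjd3 KO and 0.93 in Utx KO. Both stayed called with length offsets and, with Gm9887, were the genes still called when the knockouts were treated as 1 group. With 1 library left out, edgeR no longer called Itga3 and Cdc42bpa without Tdt Control replicate 1 (adjusted p 0.0504).

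Ddit4, an inhibitor of the growth kinase complex mTORC1, and Cxcl1, a chemokine that attracts neutrophils, were also higher in every knockout library. Ddit4 stood at 35.2 and 40.7 CPM in Tdt Control, 62.2 and 61.2 in Jmjd3 KO, and 57 and 60.6 in Utx KO. Both genotypes were alike and clear of the controls, with a rise of 0.67 ± 0.07 (edgeR adjusted p = 0.0113). Cxcl1 stood at 104 and 108 CPM in Tdt Control, 163 and 153 in Jmjd3 KO, and 144 and 164 in Utx KO, again with no overlap, and rose by 0.56 ± 0.06 (adjusted p = 0.0142). Leave-one-out fits dropped the call for Ddit4 without Tdt Control replicate 1 (adjusted p 0.0504), and Cxcl1 without Jmjd3 KO replicate 1 or either Tdt Control library (adjusted p 0.0617 to 0.111).

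Promoter sequence is shown for Itga3, Ddit4 and Cxcl1, as genes that moved alike in both knockouts, because the H3K27 demethylases and PRC2 act on chromatin and many PRC2 targets have promoters rich in CG. It comes from RefSeq (GRCm38.p6) and runs 5′ to 3′ on the gene's strand. The part shown lies within 250 bases before the RefSeq start and outside the gene in GENCODE M21, and the capitals mark CG dinucleotides. Itga3 is on the minus strand at chr11:95076802-95076964 with 12 CG in 163 bases, Ddit4 on the minus strand at chr10:59951835-59952020 with 16 in 186, and Cxcl1 on the plus strand at chr5:90890995-90891240 with 10 in 246.
Itga3: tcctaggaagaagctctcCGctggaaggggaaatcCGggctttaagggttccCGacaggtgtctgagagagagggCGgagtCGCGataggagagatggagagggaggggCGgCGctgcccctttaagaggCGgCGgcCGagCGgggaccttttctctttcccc
Ddit4: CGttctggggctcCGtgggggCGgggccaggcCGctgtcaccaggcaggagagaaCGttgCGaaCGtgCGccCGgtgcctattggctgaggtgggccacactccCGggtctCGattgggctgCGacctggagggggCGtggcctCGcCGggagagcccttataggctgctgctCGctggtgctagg
Cxcl1: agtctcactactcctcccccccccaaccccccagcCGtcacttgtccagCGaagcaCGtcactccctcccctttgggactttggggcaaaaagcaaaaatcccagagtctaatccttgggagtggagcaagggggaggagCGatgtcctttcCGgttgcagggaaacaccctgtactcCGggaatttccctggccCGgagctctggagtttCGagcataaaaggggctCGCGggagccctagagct

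Over windows of 300 bases (250 before and 50 after the RefSeq start), Itga3 held 24 CG, Ddit4 26 and Cxcl1 10. The median was 18 CG for the 63 windows found for called genes on the higher side, 18 for the 37 on the lower side and 20 for all 11305 tested genes with a window. Patterns were searched on both strands. TATAAA, the core of a TATA box, was in 6 of the 63 higher windows (9.52%), 8 of the 37 lower windows (21.6%) and 7.57% of all windows. The AP-1 pattern TGANTCA was in 4 higher windows (6.35%), 2 lower windows (5.41%) and 5.01% of all, and the E-box CAGCTG, to which MyoD can bind, was in 15.9%, 16.2% and 15.3%. Cdc42bpa held CAGCTG, and the windows of Itga3, Ddit4 and Cxcl1 held none of these patterns. Other patterns, such as sites for NF-kB, were not searched. A match is a description of these letters only.

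Adcyap1r1, Nptx1, Cacna1d and Slco2a1 fell in the pool. Adcyap1r1, the receptor of the neuropeptide PACAP, stood at 33.2 and 31.1 CPM in Tdt Control, 17.9 and 20.6 in Jmjd3 KO, and 17.1 and 20.4 in Utx KO. The controls were clear of all knockout libraries, and it fell by 0.76 ± 0.08 (edgeR adjusted p = 0.0126). Nptx1, a secreted pentraxin, fell by 0.54 ± 0.08 (adjusted p = 0.0299). Cacna1d, a subunit of L-type calcium channels, fell by 0.83 ± 0.09 (adjusted p = 0.0126), with -1.05 in Jmjd3 KO and -0.61 in Utx KO. Slco2a1, a prostaglandin transporter, fell by 0.51 ± 0.08 (adjusted p = 0.0394) and more in Jmjd3 KO, by -0.41 ± 0.10 (adjusted p = 0.0442). Among fits with 1 library fewer, the call was missed for Adcyap1r1 and Cacna1d without either Tdt Control library (adjusted p 0.0659 to 0.0946), Nptx1 without either Jmjd3 KO library, either Tdt Control library or Utx KO replicate 1 (adjusted p 0.0645 to 0.157), and Slco2a1 without Jmjd3 KO replicate 1, either Tdt Control library or either Utx KO library (adjusted p 0.0776 to 0.193). Rpl9-ps6, named as a copy of a ribosomal protein gene, fell by 1.07 ± 0.19 (adjusted p = 0.0484), and reads of its near-identical copies may be split between them, so its value is uncertain. Its call was lost without either Tdt Control library or either Utx KO library (adjusted p 0.117 to 0.212).

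Ligands that signal between cells were among other genes that fell alike, chosen after their values were seen. Hbegf, a ligand of the EGF receptor, stood at 68.1 and 69.5 CPM in Tdt Control, 51.8 and 55.2 in Jmjd3 KO, and 53.6 and 53.1 in Utx KO. It did not overlap the controls in either genotype and fell by 0.36 ± 0.05 (edgeR adjusted p = 0.0183), with -0.36 in Jmjd3 KO and -0.37 in Utx KO. Areg, a second EGF receptor ligand, fell by 0.65 ± 0.10 (adjusted p = 0.0408) at levels of 6.26 and 6.53 CPM in Tdt Control, 4.51 and 4.72 in Jmjd3 KO, and 3.22 and 4.01 in Utx KO. Efnb2, a membrane-bound ligand of Eph receptors, fell by 0.38 ± 0.05 (adjusted p = 0.0171). Map2k3, a kinase that activates p38, fell by 0.45 ± 0.06 (adjusted p = 0.020). Sema7a, a membrane-anchored semaphorin, fell by 0.26 ± 0.04 (adjusted p = 0.0404), and Stc1, a secreted glycoprotein, fell by 0.89 ± 0.14 (adjusted p = 0.0394). The calls were lost for Areg without either Jmjd3 KO library, either Tdt Control library or Utx KO replicate 1 (adjusted p 0.0771 to 0.173), Hbegf, Efnb2 and Map2k3 without Jmjd3 KO replicate 1, either Tdt Control library or either Utx KO library (adjusted p 0.0583 to 0.126), and Sema7a and Stc1 without any 1 of the 6 libraries (adjusted p 0.0552 to 0.177).

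Higher genes with a like size in both genotypes included Rnf122, Kcns3, Ccng2, Hmox1 and Prelp. Rnf122, a RING-domain ubiquitin ligase, stood at 13.4 and 14.4 CPM in Tdt Control, 21.9 and 20.6 in Jmjd3 KO, and 19.6 and 21.4 in Utx KO. The genotypes were alike, with 0.61 in Jmjd3 KO and 0.56 in Utx KO, and the pooled rise was 0.59 ± 0.06 (edgeR adjusted p = 0.0113). Kcns3, a modulatory subunit of potassium channels, rose by 0.69 ± 0.10 (adjusted p = 0.0332). Ccng2, an unconventional cyclin linked to cell cycle arrest, stood at 7.9 and 6.86 CPM in Tdt Control, 11.4 and 10.5 in Jmjd3 KO, and 12.9 and 13.2 in Utx KO, and rose by 0.69 ± 0.08 (adjusted p = 0.0149). Hmox1, the heme oxygenase and an NRF2 target, rose by 0.72 ± 0.12 (adjusted p = 0.0413), though its libraries spread widely within a genotype. Prelp, a leucine-rich matrix proteoglycan, rose by 0.65 ± 0.09 (adjusted p = 0.0218). Cd200, a surface protein that dampens immune cells, rose by 0.62 ± 0.07 (adjusted p = 0.0113), with 0.42 in Jmjd3 KO and the larger 0.82 in Utx KO (difference -0.39 ± 0.07, adjusted p = 0.0209). With 1 library left out, edgeR no longer called Cd200 without Jmjd3 KO replicate 1 or Tdt Control replicate 1 (adjusted p 0.0545 to 0.0582), Rnf122 without Jmjd3 KO replicate 1 or either Tdt Control library (adjusted p 0.0534 to 0.0855), Ccng2 without Jmjd3 KO replicate 1, either Tdt Control library or Utx KO replicate 2 (adjusted p 0.0504 to 0.0732), Prelp without Jmjd3 KO replicate 1, Tdt Control replicate 1 or either Utx KO library (adjusted p 0.0613 to 0.0842), Hmox1 without either Jmjd3 KO library, either Tdt Control library or Utx KO replicate 1 (adjusted p 0.064 to 0.17), and Kcns3 without any 1 of the 6 libraries (adjusted p 0.0509 to 0.15). Rarg (retinoic acid receptor gamma, 0.45, adjusted p = 0.0117) and Fzd7 (a Wnt receptor, 0.43, adjusted p = 0.0226) also rose, and were chosen after their values were seen. Their calls were lost for Rarg without either Jmjd3 KO library or either Tdt Control library (adjusted p 0.0521 to 0.0827), and Fzd7 without any 1 of the 6 libraries (adjusted p 0.0651 to 0.105).

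**Figure D2:**
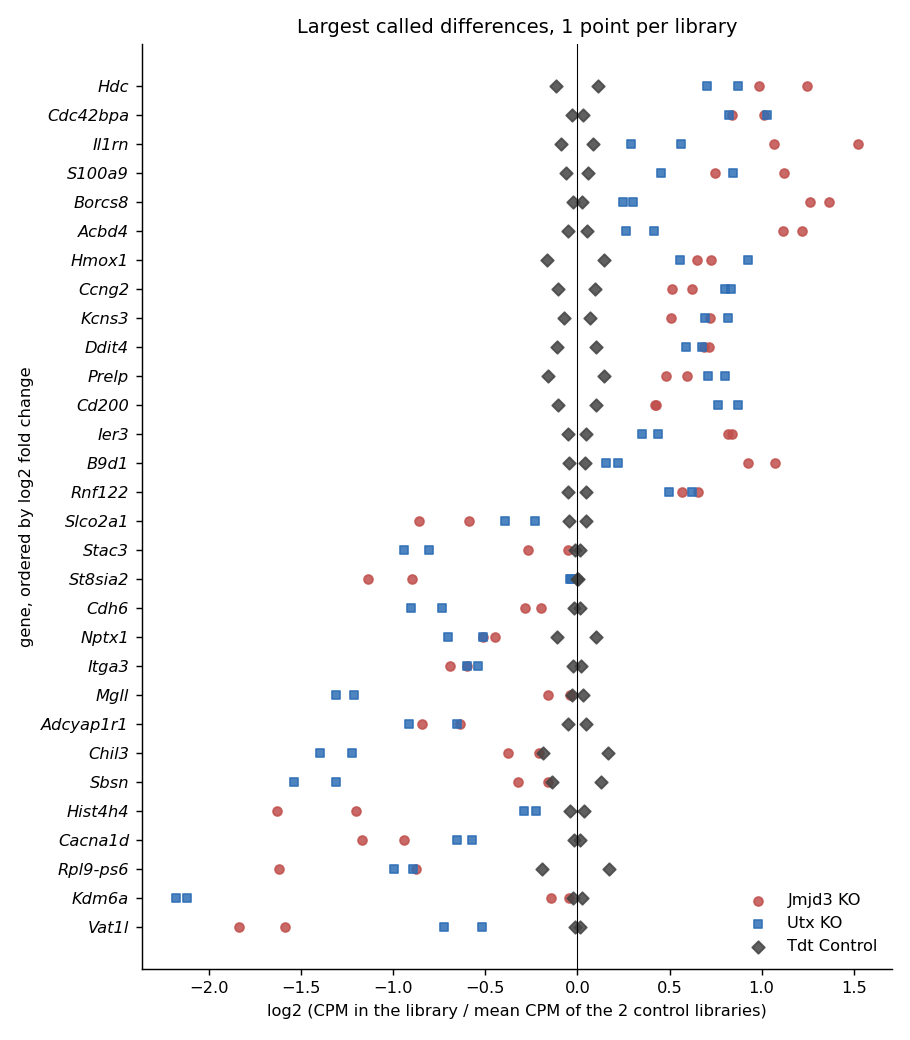
Each row is 1 of the 15 largest falls or 15 largest rises among called genes with no overlap and a mean of at least 5 CPM, and each point is 1 library, as log2 of its CPM over the mean of both controls. Itga3, Adcyap1r1, Cdc42bpa and Ddit4 have both genotypes together, while Vat1l and Borcs8 have Jmjd3 KO farther out and Kdm6a, Sbsn and Mgll have Utx KO farther out.

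For several large pooled changes, 1 genotype carried most of the difference. Vat1l had the largest of the 15 falls, and stood at 43.7 and 44.5 CPM in Tdt Control, 14.7 and 12.4 in Jmjd3 KO, and 30.8 and 26.7 in Utx KO. Jmjd3 KO was lowest and Utx KO lay between it and the controls. In the pool it fell by 1.16 ± 0.08 (edgeR adjusted p = 0.00213), with -1.71 in Jmjd3 KO and -0.62 in Utx KO, a difference of -1.09 ± 0.10 (adjusted p = 0.00133). St8sia2, the enzyme that adds polysialic acid to the adhesion molecule NCAM, had -1.01 in Jmjd3 KO and -0.04 in Utx KO, and in the pool it fell by 0.52 ± 0.07 (adjusted p = 0.0184). Tnc, the matrix glycoprotein tenascin C, had -0.67 and -0.18, and in the pool it fell by 0.42 ± 0.04 (adjusted p = 0.00604). Borcs8, a subunit of the complex that positions lysosomes, stood at 4.33 and 4.19 CPM in Tdt Control, 10.2 and 11 in Jmjd3 KO, and 5.25 and 5.05 in Utx KO. It rose by 0.79 ± 0.08 (adjusted p = 0.0113), mostly in Jmjd3 KO, which exceeded Utx KO by 1.04 ± 0.09 (adjusted p = 0.00127). Acbd4, an acyl-CoA binding protein, rose by 0.76 ± 0.09 (adjusted p = 0.0147), and B9d1, a protein of the ciliary transition zone, by 0.60 ± 0.08 (adjusted p = 0.024), both also larger in Jmjd3 KO. AA465934, a non-coding transcript chosen after its values were seen, stood at 1.43 and 1.46 CPM in Tdt Control, 15.1 and 12.6 in Jmjd3 KO, and 1.86 and 1.6 in Utx KO. It rose by 1.76 ± 0.13 (adjusted p = 0.00293), with 3.26 in Jmjd3 KO and 0.26 in Utx KO. Leaving out any 1 library kept Vat1l, Tnc and AA465934 called, and the calls were lost for Borcs8 without either Tdt Control library (adjusted p 0.0669 to 0.0751), Acbd4 without Jmjd3 KO replicate 1 or either Tdt Control library (adjusted p 0.0639 to 0.105), St8sia2 without either Tdt Control library or either Utx KO library (adjusted p 0.063 to 0.122), and B9d1 without Jmjd3 KO replicate 1, either Tdt Control library or either Utx KO library (adjusted p 0.0655 to 0.15).

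Mgll, Sbsn, Chil3, Cdh6, Stac3, Reln and Gm16867 were lower in the pool mainly through Utx KO. Mgll, the lipase that breaks down monoacylglycerols, stood at 26.1 and 27.2 CPM in Tdt Control, 23.9 and 25.9 in Jmjd3 KO, and 10.7 and 11.5 in Utx KO. Utx KO was far below the controls, while Jmjd3 KO replicate 2 lay just under them, and in the pool it fell by 0.68 ± 0.06 (edgeR adjusted p = 0.00541). Sbsn, a secreted epidermal protein, stood at 6.41 and 7.7 CPM in Tdt Control, 6.32 and 5.65 in Jmjd3 KO, and 2.85 and 2.43 in Utx KO, and fell by 0.83 ± 0.11 (adjusted p = 0.0241). Chil3, a chitinase-like protein of macrophages, fell by 0.80 ± 0.11 (adjusted p = 0.0275) with -0.29 in Jmjd3 KO and -1.30 in Utx KO. Macrophage and monocyte markers summed to 302 and 357 CPM in Tdt Control, 450.4 and 406 CPM in Jmjd3 KO, and 271 and 312 CPM in Utx KO. Jmjd3 KO lay above the controls and Utx KO overlapped them, and the part of these cells in the value of Chil3 was not tested. Cdh6, a cadherin, fell by 0.53 ± 0.09 (adjusted p = 0.0434), and Stac3, which serves excitation-contraction coupling in muscle, by 0.51 ± 0.09 (adjusted p = 0.0438). Reln, the secreted protein reelin, was chosen after its values were seen and fell by 0.81 ± 0.09 (adjusted p = 0.013). The knockouts differed for each of these 6 genes, by 1.16 for Mgll, 1.18 for Sbsn, 1.01 for Chil3, 0.57 for Cdh6, 0.72 for Stac3 and 1.34 for Reln, Jmjd3 KO over Utx KO. Gm16867, also chosen after its values were seen, stood at 33.8 and 31.5 CPM in Tdt Control, 28 and 30.3 in Jmjd3 KO, and 0.316 and 0.238 in Utx KO. It was almost lost in Utx KO, and in the pool it fell by 3.52 ± 0.08 (adjusted p = 3.62e-06), with -0.16 in Jmjd3 KO and -6.88 in Utx KO. Leaving out any 1 library kept Mgll and Gm16867 called, and the calls were lost for Reln without Jmjd3 KO replicate 1 or either Tdt Control library (adjusted p 0.0617 to 0.0829), Chil3 without either Jmjd3 KO library, Tdt Control replicate 2 or either Utx KO library (adjusted p 0.054 to 0.101), and Sbsn, Cdh6 and Stac3 without any 1 of the 6 libraries (adjusted p 0.054 to 0.197).

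Mgll and Sbsn were the called genes of at least 5 CPM with the narrowest gap between the groups, at 0.00924 and 0.0197 log2 CPM. Arnt2 and Atox1 were the nearest outside, with gaps of -0.0196 and -0.0011 log2 CPM, negative because the groups overlap. Arnt2, a partner of bHLH-PAS factors, stood at 10.2 and 8.88 CPM in Tdt Control, 9.0 and 8.66 in Jmjd3 KO, and 4.95 and 4.86 in Utx KO, and Atox1, a copper chaperone, at 16.8 and 16.4 CPM in Tdt Control, 27.6 and 24.8 in Jmjd3 KO, and 16.7 and 16.8 in Utx KO. In each, 1 genotype lay among the controls.

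Among regulators of the muscle lineage, Myod1 and Id1 fell and Pax7 was not called. Myod1, the factor that commits satellite cells to myogenesis, stood at 469 and 473 CPM in Tdt Control, 400.0 and 410.1 in Jmjd3 KO, and 407 and 403 in Utx KO. All 4 knockout libraries were below the controls by a small margin, and it fell by 0.22 ± 0.03 (edgeR adjusted p = 0.0389), with -0.22 in each genotype. Id1, a BMP target that keeps bHLH factors such as MyoD from binding DNA, stood at 157 and 147 CPM in Tdt Control, 116 and 113 in Jmjd3 KO, and 110.2 and 108 in Utx KO. It was lower in every knockout library and fell by 0.45 ± 0.05 (adjusted p = 0.0113), also with length offsets. Six4, a homeobox factor of the muscle lineage, rose by 0.26 ± 0.04 (adjusted p = 0.0483) and more in Utx KO. Pax7 had 0.06 ± 0.05 (adjusted p = 0.614) and Myf5 0.19 ± 0.05 (adjusted p = 0.108). Myog, which drives terminal differentiation, had 0.44 ± 0.14 (adjusted p = 0.193), with -0.10 in Jmjd3 KO and 0.98 in Utx KO. Of 29 identity genes and myogenic regulators, 7 lay on one side higher and 3 lower (9.33% and 9.37% over all genes), with a median log2 fold change of 0.08. None of 33 genes of muscle differentiation and fusion was called by edgeR, 8 had an unadjusted p under 0.05, DESeq2 called 4, all higher, and the median was 0.13. Mature fibre markers summed to 6839 and 7165 CPM in Tdt Control, 8885 and 9498 CPM in Jmjd3 KO, and 6260.5 and 7365 CPM in Utx KO. Both Jmjd3 KO libraries lay above the controls and Utx KO lay around them, and the part of fibre RNA in the values of muscle genes was not tested. Leave-one-out fits dropped the call for Id1 without Jmjd3 KO replicate 1 or Tdt Control replicate 1 (adjusted p 0.0545 to 0.0785), and Myod1 and Six4 without any 1 of the 6 libraries (adjusted p 0.0895 to 0.182).

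The cell cycle inhibitors Cdkn1b and Cdkn2d and the receptor Fgfr4 rose in both genotypes. Cdkn1b, an inhibitor of cyclin-dependent kinases, stood at 24.6 and 24.8 CPM in Tdt Control, 31.4 and 31.1 in Jmjd3 KO, and 32 and 31.5 in Utx KO. The groups were tight and apart, and it rose by 0.35 ± 0.04 (edgeR adjusted p = 0.013). Cdkn2d, an INK4 inhibitor of the kinases that work with D-type cyclins, stood at 12.3 and 11.9 CPM in Tdt Control, 17.9 and 16.7 in Jmjd3 KO, and 16.3 and 17.8 in Utx KO, and rose by 0.50 ± 0.06 (adjusted p = 0.0184). These were the called members among 22 G1 cyclins and inhibitors, of which 2 lay on one side higher and 5 lower, against 9.33% and 9.37% of all genes, with a median of -0.05. Fgfr4, an FGF receptor of myogenic cells, stood at 87.9 and 89.3 CPM in Tdt Control, 128 and 124 in Jmjd3 KO, and 133 and 115 in Utx KO. It rose by 0.49 ± 0.06 (adjusted p = 0.0209), and it was the called member of 28 growth factor receptors, 8 of which lay on one side higher and 2 lower. Of 34 genes of quiescence and Notch signalling, 3 rose (Cdkn1b, Fgfr4 and Bmp6), 6 lay on one side higher and 3 lower, and the median was 0.05. Over all genes, the shares on one side were 9.33% and 9.37%, and 1.06% were called. Among fits with 1 library fewer, the call was missed for Cdkn1b and Fgfr4 without either Jmjd3 KO library or either Tdt Control library (adjusted p 0.0509 to 0.14), Cdkn2d without Jmjd3 KO replicate 1, either Tdt Control library or Utx KO replicate 2 (adjusted p 0.0537 to 0.102), and Bmp6 without either Jmjd3 KO library, Tdt Control replicate 1 or either Utx KO library (adjusted p 0.102 to 0.165).

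No gene of DNA replication, mitosis, ribosome biogenesis, the respiratory chain or cholesterol and fatty acid synthesis was called by edgeR. Of 45 genes of ribosome biogenesis, 25 lay below both controls in all 4 knockout libraries and 0 above, where 9.37% of all genes lay below. The median log2 fold change was -0.10, and 20 had an unadjusted p under 0.05, all lower. Nop56, a core protein of the nucleolar complexes that modify ribosomal RNA, stood at 347 and 342 CPM in Tdt Control, 299.6 and 308 in Jmjd3 KO, and 303 and 315 in Utx KO. Its log2 fold change of -0.17 ± 0.04 did not pass the test (adjusted p = 0.0943), nor did that of Wdr43, a protein of the small subunit processome, at -0.17 ± 0.04 (adjusted p = 0.092). DESeq2 called 4 members of this list, all lower. Of 44 DNA replication genes, 11 lay below and 1 above, the median was -0.09, 9 had an unadjusted p under 0.05, and DESeq2 called 2, both lower. Pole, the catalytic subunit of DNA polymerase epsilon, had -0.24 ± 0.04 (adjusted p = 0.0564) at 175 and 166 CPM in Tdt Control, 144 and 146 in Jmjd3 KO, and 145 and 142 in Utx KO. Nop56, Wdr43 and Pole were chosen after their values were seen. Of 38 genes of G2 and mitosis 0 lay above and 1 below, and 1 had an unadjusted p under 0.05. The 40 respiratory chain genes had 1 in each direction and 2 with such a p, and the 31 genes of cholesterol and fatty acid synthesis had 3 in each direction and 2 with such a p. DESeq2 called 0 of the mitosis and respiratory chain genes and 1 of the cholesterol and fatty acid genes, lower.

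Many histone genes lay lower in every library of both knockouts, and this group was defined after its values were seen. Of 66 genes with a Hist symbol, 42 lay below both controls in all 4 knockout libraries and 2 above (9.37% and 9.33% over all genes), with a median log2 fold change of -0.18. edgeR called 8 lower and 1 higher, where 1.06% of all genes were called. Hist1h2bc, which encodes a histone H2B, stood at 304 and 312 CPM in Tdt Control, 240.4 and 247 in Jmjd3 KO, and 236 and 242 in Utx KO. Both genotypes lay below the controls and close together, and it fell by 0.35 ± 0.04 (adjusted p = 0.0126). Hist1h2bj fell by 0.37 ± 0.04 (adjusted p = 0.0113), Hist1h2bm by 0.29 ± 0.04 (adjusted p = 0.0187) and Hist2h2bb by 0.33 ± 0.05 (adjusted p = 0.0302). The largest fall was that of Hist4h4, a histone H4 gene, at 347 and 329 CPM in Tdt Control, 147 and 109 in Jmjd3 KO, and 277 and 289 in Utx KO. It fell by 0.83 ± 0.10 (adjusted p = 0.0175), with -1.40 in Jmjd3 KO and -0.26 in Utx KO. Hist2h4 (-0.29), Hist2h2ac (-0.27) and Hist1h1a (-0.26) were the other members that fell. The 1 member called higher was at a low level and overlapped the controls in Utx KO. Many histone genes are near-identical copies, so reads may be split among them and single values are uncertain. The calls were lost for Hist1h2bc and Hist1h2bj without Jmjd3 KO replicate 1 or either Tdt Control library (adjusted p 0.0545 to 0.0836), Hist4h4 without either Tdt Control library or either Utx KO library (adjusted p 0.0604 to 0.126), and Hist1h2bm, Hist2h2bb, Hist2h4, Hist2h2ac and Hist1h1a without any 1 of the 6 libraries (adjusted p 0.0509 to 0.194).

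**Figure D3:**
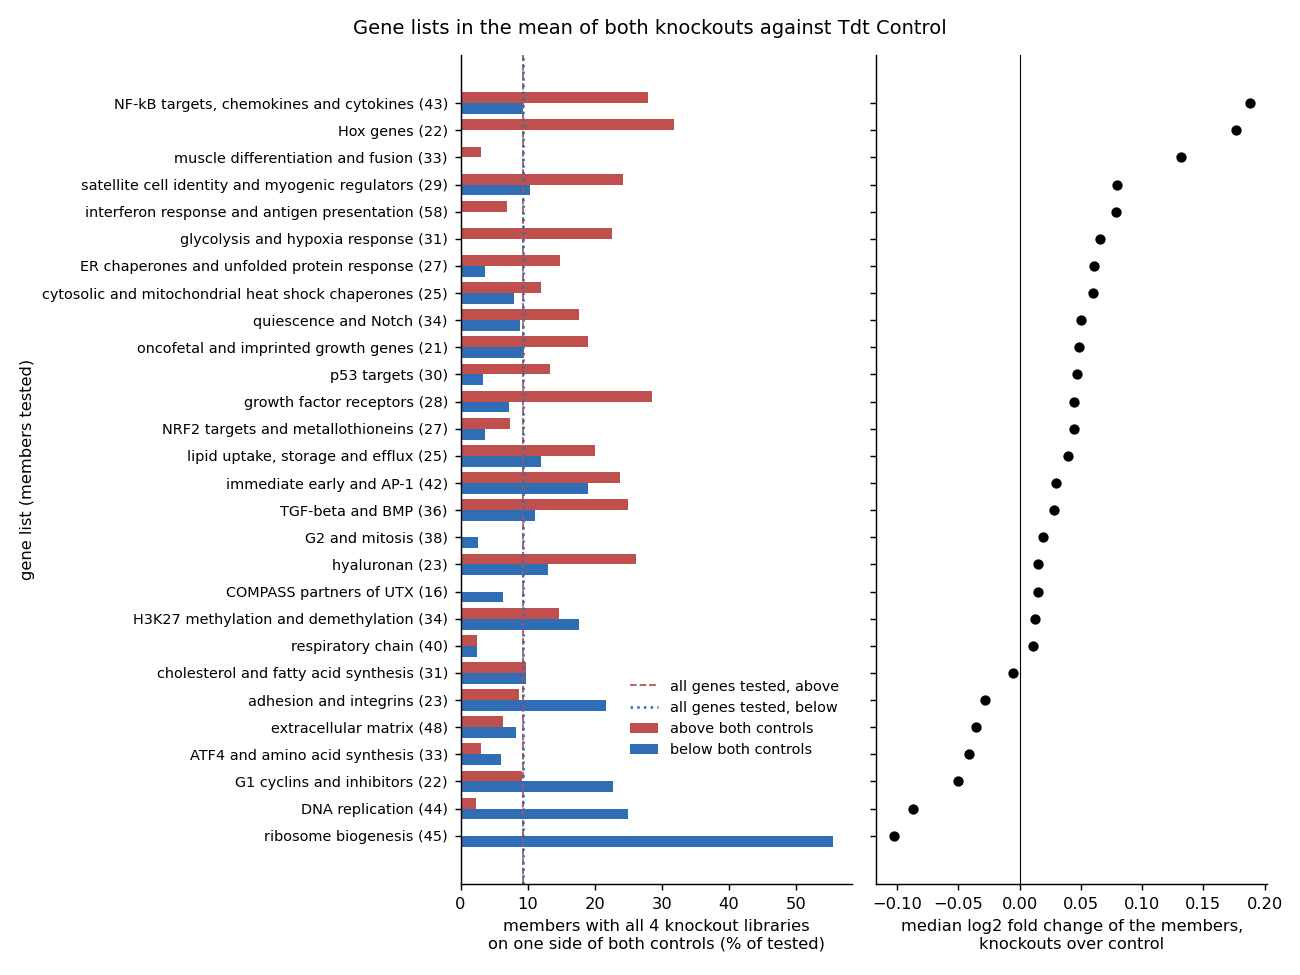
For each of the 28 pathway lists, bars give the share of its tested members with all 4 knockout libraries above or below both controls (left, % of tested), with lines at the shares over all genes tested, 9.33% and 9.37%. Points give the median log2 fold change of the members (right). Ribosome biogenesis has 25 of 45 members below and a median of -0.10, and the NF-kB list has 12 of 43 members above and a median of 0.19.

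The integrin subunits Itga3, Itga6 and Itga5 fell together. They were the called members of a list of 23 adhesion genes, where 1.06% of all genes were called. In this list 5 members lay on one side lower and 2 higher (9.37% and 9.33% over all genes), and the median was -0.03. Itga6 is, like Itga3, a laminin receptor subunit, and Itga5 is a fibronectin receptor subunit. Itga6 stood at 32.2 and 30.2 CPM in Tdt Control, 25.3 and 26.2 in Jmjd3 KO, and 25 and 24.2 in Utx KO, and fell by 0.31 ± 0.05 (edgeR adjusted p = 0.0328). Itga5 stood at 113 and 111 CPM in Tdt Control, 93.4 and 94.6 in Jmjd3 KO, and 92 and 94.6 in Utx KO, and fell by 0.26 ± 0.04 (adjusted p = 0.049). In both, all knockout libraries were below the controls by a narrow margin. Of 48 matrix genes, Adamts4, an aggrecan protease, rose by 0.45 ± 0.06 (adjusted p = 0.0266) and Tnc fell, with 3 on one side higher, 4 lower and a median of -0.04, so that neither share exceeded that of all genes. With 1 library left out, edgeR no longer called Adamts4 without either Tdt Control library or either Utx KO library (adjusted p 0.0703 to 0.134), and Itga6 and Itga5 without any 1 of the 6 libraries (adjusted p 0.0727 to 0.203).

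The hyaluronan genes did not move one way. Has2, the synthase that makes long hyaluronan chains, stood at 23.8 and 21.8 CPM in Tdt Control, 10.3 and 8.45 in Jmjd3 KO, and 25.8 and 26.6 in Utx KO. Jmjd3 KO was low, and Utx KO lay above both controls. In the pool it fell by 0.54 ± 0.08 (edgeR adjusted p = 0.0288), the mean of -1.29 in Jmjd3 KO and 0.20 in Utx KO, which differed by -1.49 ± 0.10 (adjusted p = 0.000314). Cd44, a hyaluronan receptor, fell by 0.18 ± 0.03 (adjusted p = 0.0434). Ptx3 and Tnfaip6, secreted proteins that crosslink hyaluronan, rose by 0.50 ± 0.07 (adjusted p = 0.0226) and 0.33 ± 0.05 (adjusted p = 0.0434). Of 23 genes in the list, 6 lay on one side higher and 3 lower, where all genes had 9.33% and 9.37%, and the median was 0.02. Leave-one-out fits dropped the call for Has2 without Jmjd3 KO replicate 2, either Tdt Control library or either Utx KO library (adjusted p 0.0525 to 0.167), and Cd44, Ptx3 and Tnfaip6 without any 1 of the 6 libraries (adjusted p 0.0639 to 0.203).

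Of 43 NF-kB targets, chemokines and cytokines tested, 6 rose and 0 fell (1.06% of all genes were called). In this list 12 lay on one side higher and 4 lower, against 9.33% and 9.37% of all genes, so the lower members stood at the share over all genes, and the median log2 fold change was 0.19. Besides Cxcl1, Il1rn, the antagonist of the interleukin-1 receptor, stood at 15.6 and 13.8 CPM in Tdt Control, 42.2 and 30.7 in Jmjd3 KO, and 17.9 and 21.7 in Utx KO. Every knockout library was above the controls, Jmjd3 KO most, and it rose by 0.87 ± 0.14 (edgeR adjusted p = 0.0394). Bcl3, a coactivator of the IkB family, rose by 0.54 ± 0.07 (adjusted p = 0.0177), and Cxcl5, a neutrophil chemokine, by 0.41 ± 0.06 (adjusted p = 0.0389). Birc3, an inhibitor of apoptosis, rose by 0.31 ± 0.05 (adjusted p = 0.0443) and Cebpb, a factor of inflammatory genes, by 0.41 ± 0.07 (adjusted p = 0.0483). Birc3 and Cebpb were chosen after their values were seen, as was Fosb below. Among 42 immediate early and AP-1 genes, Ier3, an NF-kB target, rose by 0.61 ± 0.05 (adjusted p = 0.00604), whereas Fosl1, Fosb, Sgk1 and Klf2 fell, with -0.43, -0.40, -0.24 and -0.28 (adjusted p = 0.0221, 0.0394, 0.033 and 0.0394). In that list 10 lay on one side higher and 8 lower, where the shares over all genes were 9.33% and 9.37%, and the median was 0.03. Among fits with 1 library fewer, the call was missed for Ier3 without Tdt Control replicate 1 (adjusted p 0.0578), Bcl3 without either Tdt Control library or Utx KO replicate 1 (adjusted p 0.054 to 0.0936), Fosl1 without either Jmjd3 KO library, Tdt Control replicate 1 or either Utx KO library (adjusted p 0.0647 to 0.10), Il1rn without Jmjd3 KO replicate 1, either Tdt Control library or either Utx KO library (adjusted p 0.0617 to 0.177), and Cxcl5, Birc3, Cebpb, Fosb, Sgk1 and Klf2 without any 1 of the 6 libraries (adjusted p 0.0578 to 0.212).

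Markers of neutrophils, which enter injured muscle early, moved with these genes. Summed over 15 markers, they reached 175 and 193 CPM in Tdt Control, 349 and 271 in Jmjd3 KO, and 239 and 271 in Utx KO. Every knockout library was above the controls. Hdc, the enzyme that makes histamine, stood at 15 and 12.8 CPM in Tdt Control, 32.9 and 27.5 in Jmjd3 KO, and 22.6 and 25.4 in Utx KO, and rose by 0.96 ± 0.10 (edgeR adjusted p = 0.0113). S100a9, a calcium-binding protein abundant in neutrophils, stood at 31 and 33.6 CPM in Tdt Control, 70.3 and 54.3 in Jmjd3 KO, and 44.3 and 58 in Utx KO, and rose by 0.81 ± 0.13 (adjusted p = 0.0429). Mxd1, a partner of Max that opposes Myc, rose by 0.52 ± 0.06 (adjusted p = 0.0171). Ngp, a granule gene of immature neutrophils, fell by 2.63 ± 0.42 (adjusted p = 0.040), at levels under 1 CPM in every library. Of 13 markers tested, 9 lay on one side higher and 1 lower (9.33% and 9.37% over all genes), and the median was 0.52. Ly6g and Camp stood under 0.1 CPM in every library, so 2 defining markers were near 0. The part of neutrophil RNA in the rise of Hdc, S100a9, Mxd1, Il1rn, Cxcl5 and the NF-kB list was not tested. The calls were lost for Hdc without either Tdt Control library (adjusted p 0.0504 to 0.0669), Mxd1 without either Tdt Control library or Utx KO replicate 2 (adjusted p 0.0544 to 0.101), S100a9 without Jmjd3 KO replicate 1, either Tdt Control library or Utx KO replicate 2 (adjusted p 0.0824 to 0.216), and Ngp without any 1 of the 6 libraries (adjusted p 0.111 to 0.218).

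The sums of satellite cell and lymphocyte markers did not overlap between the groups either, and those of the other cell types did. Satellite cell markers summed to 4098 to 4333 CPM in the knockouts and 4074 to 4077 CPM in the controls, a narrow gap. It rests on Des, at 1091 and 1112 CPM in Tdt Control, 1377 and 1425 in Jmjd3 KO, and 1062 and 1096 in Utx KO. Without Des, the satellite cell sums of Jmjd3 KO lie below both controls and those of Utx KO above. Lymphocyte markers summed to 0.217 to 0.353 CPM in the knockouts and 0.380 to 0.395 CPM in the controls, so they were near 0 in all libraries. Fibro-adipogenic progenitors were at 1271 to 1496 against 1279.8 to 1284 CPM, mural cells at 1505 to 1928 against 1589 to 1609 CPM, and Schwann cells at 74.4 to 99.2 against 76.6 to 81.7 CPM. Endothelial markers were at 76.0 to 111 against 99.1 to 108 CPM, tenocytes at 32.6 to 50.1 against 35.7 to 56.5 CPM, and erythroid cells at 40.7 to 53.8 against 43.6 to 50.4 CPM. Taken by genotype, both Jmjd3 KO libraries lay above both controls for fibro-adipogenic progenitors, mural cells and Schwann cells. Both Utx KO libraries lay below for endothelial and mural cells and above for erythroid cells. In these lists Myod1 was the gene that edgeR called, and the mural list shares Des with the satellite cell list. Without Des, the Jmjd3 KO sums of the mural list overlap the controls. No marker was at 0 in every library.

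**Figure D4:**
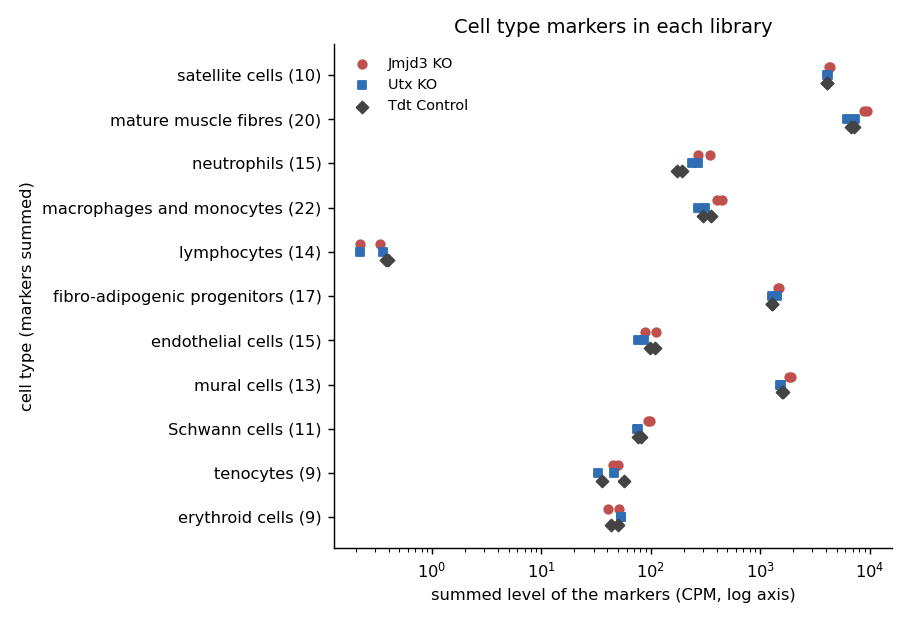
Summed CPM of each cell type's markers (x axis, log scale), 1 point per library, with the number of markers in brackets. For neutrophils the 4 knockout libraries, at 239 to 349 CPM, lie above both controls, at 175 and 193 CPM, while for satellite cells all 6 lie between 4074 and 4333 CPM.

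Of 58 genes of the interferon response and antigen presentation, 4 rose and 0 fell, where 1.06% of all genes were called. On one side 4 were higher and 0 lower, fewer in share than the 9.33% and 9.37% of all genes, and the median was 0.08. Xaf1, an interferon-induced gene, had 2.40 in Jmjd3 KO and 0.09 in Utx KO, and Tap2, a peptide transporter, had 0.67 and -0.01. Their groups overlapped through Utx KO. Stat2, a factor that carries interferon signals, had 0.39 and 1.23, and Ifitm1 0.76 and 0.28. The pooled rises were 1.24, 0.33, 0.81 and 0.52 (edgeR adjusted p = 0.0113, 0.020, 0.0484 and 0.0484), and that of Xaf1 was 0.81 with length offsets (adjusted p = 0.0698). In the glycolysis and hypoxia list, Slc16a3, a lactate exporter, rose by 0.49 ± 0.07 (adjusted p = 0.0226) and Ndrg1, a hypoxia-induced gene, by 0.55 ± 0.08 (adjusted p = 0.0256), with 7 of 31 on one side higher and 0 lower, against 9.33% and 9.37% of all genes. Adm, the peptide adrenomedullin, rose by 0.47 ± 0.07 (adjusted p = 0.0276) as the mean of -0.25 in Jmjd3 KO and 1.19 in Utx KO. Hsp90b1, a chaperone of the endoplasmic reticulum, and Hspa4l, a heat shock protein, rose by 0.22 and 0.29 (adjusted p = 0.0404 and 0.0353), both mostly in Utx KO. The ATF4 list had Ddit4 as its called member of 33, the NRF2 list Hmox1 of 27, and none of 30 p53 targets was called, with 4 at an unadjusted p under 0.05 and 0 called by DESeq2. With 1 library left out, edgeR no longer called Xaf1 without Jmjd3 KO replicate 1 or either Tdt Control library (adjusted p 0.0599 to 0.0669), Ndrg1 without either Jmjd3 KO library or either Tdt Control library (adjusted p 0.0638 to 0.119), Slc16a3 without Jmjd3 KO replicate 1, either Tdt Control library or Utx KO replicate 2 (adjusted p 0.0544 to 0.148), Stat2 without either Jmjd3 KO library, either Tdt Control library or Utx KO replicate 2 (adjusted p 0.0891 to 0.182), and Tap2, Ifitm1, Adm, Hsp90b1 and Hspa4l without any 1 of the 6 libraries (adjusted p 0.0509 to 0.219).

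Of 21 oncofetal and imprinted growth genes 1 rose and 3 fell, where 1.06% of all genes were called. On one side 4 of the 21 lay higher and 2 lower (9.33% and 9.37% over all genes), and the median was 0.05. In the 3 that fell, Jmjd3 KO lay below both controls and Utx KO did not. H19, an imprinted non-coding RNA, rose by 0.37 ± 0.05 (edgeR adjusted p = 0.0283). Hmga2, a chromatin protein of fetal progenitors, fell by 0.77 ± 0.08 (adjusted p = 0.0113) at 96.2 and 103 CPM in Tdt Control, 33 and 38.4 in Jmjd3 KO, and 102 and 88.4 in Utx KO. Utx KO overlapped the controls, and Jmjd3 KO was far below. Sox11 (-1.29 in Jmjd3 KO, -0.01 in Utx KO) and Dlk1 (-1.22 and 0.33) had pooled values of -0.65 and -0.45 (adjusted p = 0.00213 and 0.0434). In the list of TGF-beta and BMP genes, 2 rose and 1 fell (1.06% of all genes were called). Id1 was the one that fell, and the ligands Bmp4 and Bmp6 rose by 0.30 ± 0.05 and 0.46 ± 0.08 (adjusted p = 0.0425 and 0.0484), with 9 of 36 on one side higher and 4 lower (9.33% and 9.37% over all genes). Abca1, which exports cholesterol, rose by 0.44 ± 0.05 (adjusted p = 0.0149), and Hdac5, a repressor of Mef2 chosen after its values were seen, by 0.38 ± 0.05 (adjusted p = 0.0266). None of 22 Hox genes was called by edgeR and 2 by DESeq2, both higher. On one side 7 lay higher and 0 lower, where all genes had 9.33% and 9.37%, 6 had an unadjusted p under 0.05 and the median was 0.18. Hoxc10 had 0.25 ± 0.04 (adjusted p = 0.0522) and Hoxa9 0.30 ± 0.06 (adjusted p = 0.0855), both chosen after their values were seen. Leaving out any 1 library kept Sox11 called, and the calls were lost for Hmga2 without either Tdt Control library (adjusted p 0.0633 to 0.0678), Abca1 without either Jmjd3 KO library or either Tdt Control library (adjusted p 0.0554 to 0.0829), H19 without either Jmjd3 KO library, either Tdt Control library or Utx KO replicate 2 (adjusted p 0.0554 to 0.138), Bmp6 without either Jmjd3 KO library, Tdt Control replicate 1 or either Utx KO library (adjusted p 0.102 to 0.165), and Dlk1, Bmp4 and Hdac5 without any 1 of the 6 libraries (adjusted p 0.0694 to 0.197).

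Gm9887 and Gsta1, chosen after their values were seen, had no reads in either control. Gm9887 had 39 and 47 reads in Jmjd3 KO, 30 and 45 in Utx KO, and 0 in both Tdt Control libraries. Against a floor of 3 reads per library (0.0455 CPM), which is the limit that a count of 0 allows, it was at least 14.5-fold higher (edgeR adjusted p = 0.0113). Gm9887 is annotated on the minus strand at chr12:69371835-69372458 (GRCm38) and overlaps the start of Arf6 on the plus strand. No source used here states the strand setting of the quantification, so reads of the overlapping genes cannot be told apart. Gsta1, a glutathione transferase with near-identical relatives, had 32 and 13 reads in Jmjd3 KO, 21 and 24 in Utx KO and 0 in the controls, at least 8.16-fold higher (adjusted p = 0.0381). DESeq2 gave neither an adjusted p, and the calls were lost for Gm9887 without Tdt Control replicate 1 (adjusted p 0.0578), and Gsta1 without Jmjd3 KO replicate 1, either Tdt Control library or either Utx KO library (adjusted p 0.0895 to 0.157). Floors cover counting error only.

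By chromosome, the share of tested genes called ran from 0% on M and Y to 1.95% on chromosome 11 (25 of 1284) and 1.87% on chromosome 6 (16 of 854). None exceeded 2 times the 1.06% over all genes. Chromosome 11, with the highest share, holds Kdm6b, the gene targeted in Jmjd3 KO. On the X chromosome, where Kdm6a lies, 6 of 543 genes were called (1.1%). Whether nearness to a targeted gene has a part in these calls was not tested.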

How the data were processed

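RNA of 6 libraries, 2 per genotype, was quantified by the authors. Per the submitters' processing notes the tools were cutadapt 2.6, DESeq2 1.28.1 and Salmon 1.1.0, on mm10 (GRCm38). The deposited files hold TPM and estimated counts per transcript (NumReads), per the file headers. Neither the annotation release nor the strand setting is stated in the sources used here. The authors' tables of comparisons were not used.

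Estimated counts were summed per gene through GENCODE M21 (139864 of 140748 transcripts matched, 99.8% of reads) and rounded. Of 31164 genes with a read, 17084 passed edgeR's low-count filter. Of the 14080 that did not, 1138 had all 4 knockout libraries on one side. One model, fitted with edgeR 4.0.16 in R 4.3.3 after TMM scaling, held a term per genotype (3 residual degrees of freedom, common biological coefficient of variation 0.0844). The contrast was the mean of Jmjd3 KO and Utx KO minus Tdt Control. Jmjd3 KO minus Utx KO came from the same model and does not use the controls, while each knockout's own value shares them. Log2 fold changes are given ± SE. Calls used a Benjamini-Hochberg adjusted p under 0.05. edgeR was also run on simulated data in which both knockouts changed alike. Many genes here differ between the knockouts, so that run does not bear on them.

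The members, gene lists and tests were chosen with earlier results of these data known. Named genes were Kdm6a, Kdm6b, Uty, Has2, Pax7, Myf5, Myod1 and Myog, and the 15 largest changes in each direction among called genes with no overlap and a mean of at least 5 CPM. Pseudogenes and symbols made of Gm numbers, Rik clones or accessions were left out. Up to 4 called members of each list with the smallest p were named, with the 2 genes just inside and just outside the rule. The 39 lists (28 pathways, 11 cell types) held 1097 entries, of which 1095 matched and 1038 were tested, and were described by counts and medians only. Other settings tried were DESeq2 1.42.0, upper-quartile and RLE factors, a filter of at least 5 CPM in 2 libraries or none, transcript length offsets, the knockouts as 1 group, a block for the replicate number, protein-coding genes alone, and leaving out each library.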

Additional observations from a re-analysis of the deposited data

Results flagged for a closer look

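The groups hold 2 libraries each, so no single library was tested against its group. What stands apart is that 54 of the genes named here had effects that differed between the knockouts, by edgeR's test of Jmjd3 KO minus Utx KO at an adjusted p under 0.05 (adjusted p 6.52e-07 to 0.0442). For these the pooled value averages unlike responses. Each value is the difference in log2 fold change, Jmjd3 KO minus Utx KO, and the genes were named with results known, so their number is no share of all genes.

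Among genes lower in the pool, the level was lower in Jmjd3 KO for Gm20400 (-2.96), Dlk1 (-1.55), Has2 (-1.49), Hmga2 (-1.41), Sox11 (-1.28), Hist4h4 (-1.14), Vat1l (-1.09), St8sia2 (-0.97), Fosl1 (-0.53), Tnc (-0.50), Slco2a1 (-0.41) and Cd44 (-0.18). Gm20400, Has2 and Dlk1 did not fall in Utx KO but lay above both controls there. The level was lower in Utx KO for Klf2 (0.29), Cdh6 (0.57), Stac3 (0.72), Arnt2 (0.85), Chil3 (1.01), Mgll (1.16), Sbsn (1.18), Reln (1.34), Kdm6a (2.06), Kbtbd12 (3.15) and Gm16867 (6.72). Kbtbd12 lay above both controls in Jmjd3 KO, and Kdm6a is the gene targeted in Utx KO. Hmga2 and Sox11 overlapped the controls in Utx KO, and Arnt2 did so in Jmjd3 KO.

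Among genes higher in the pool, the level was higher in Jmjd3 KO for Birc3 (0.26), Hdac5 (0.33), Mxd1 (0.39), Ptx3 (0.42), Slc16a3 (0.43), Adamts4 (0.43), Ier3 (0.43), Ifitm1 (0.48), Bcl3 (0.49), Cxcl5 (0.50), Atox1 (0.64), Tap2 (0.68), B9d1 (0.81), Acbd4 (0.82), Il1rn (0.88), Borcs8 (1.04), Xaf1 (2.31), AA465934 (3.0), Eif5al3-ps (6.08), Gm7901 (6.86) and Gm9347 (6.91). The level was higher in Utx KO for Adm (-1.44), Stat2 (-0.84), Hspa4l (-0.45), H19 (-0.45), Cd200 (-0.39), Hsp90b1 (-0.32) and Six4 (-0.22). Atox1, Tap2, Xaf1, Eif5al3-ps and Gm7901 overlapped the controls in Utx KO, and Adm was below both controls in Jmjd3 KO. The genes Myog (-1.08), Uty (-0.80) and Myf5 (-0.50) were not called in the pool but differed between the knockouts, each with the higher level in Utx KO.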

How the results depend on the processing

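The 181 called genes (97 higher, 84 lower) became 623 (339 and 284) with DESeq2, 1232 (699 and 533) without a low-count filter, 40 (17 and 23) with transcript length offsets, 3 (2 and 1) with the knockouts as 1 group, and 81 (37 and 44) with a replicate block. Leaving out 1 library gave 21 to 83 called genes, 7 to 44 higher and 14 to 39 lower. RLE factors gave 180, upper-quartile factors 179, a 5 CPM minimum 200 and protein-coding genes 261. The 3194 genes on one side were 2202 to 4322 under the settings of normalization, filter and biotype. They were 4089 to 7160 when 1 library was left out (2013 to 3671 higher, 2076 to 3558 lower), where fewer libraries make an overlap rarer. Offsets for length, the pooled group and the left-out libraries change the spread or its degrees of freedom, and which of these moved the counts was not tested.

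Of the 101 named genes that were called, 98 stayed called with DESeq2, which gave no adjusted p for Gm9887, Gsta1 and Ngp. With upper-quartile factors 99 stayed called, with length offsets 28, with the replicate block 54 and with the knockouts as 1 group 3. Leaving out each library in turn kept 11 called throughout, and 36 lost the call without every library. Uty, not called, turned to -0.047 with length offsets and ranged from -0.070 to 0.23 when 1 library was left out. Of 1140 list counts over the alternatives, 309 moved by over 1.5 times or from no called member to some.

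The labels do not say whether libraries with the same replicate number belong together. The deviations of same-numbered libraries correlated at -0.01, -0.01 and -0.05 between genotypes. With 2 libraries per genotype this cannot decide whether they were handled together, so the block result rests on a shared number only. Genes under the low-count filter, which rest on few reads, were tested only in the fit without it.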

Other observations

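Several called genes lie outside the lists or below the level at which genes were named, and were chosen after their values were seen. Rdh12, a retinol dehydrogenase, stood at 1.34 and 1.275 CPM in Tdt Control, 3.31 and 2.99 in Jmjd3 KO, and 2.19 and 2.53 in Utx KO. It was higher in every knockout library, and rose by 1.06 ± 0.14 (edgeR adjusted p = 0.0227), with 1.26 in Jmjd3 KO and 0.85 in Utx KO. Gm13394, a processed pseudogene, stood at 2.5 and 2.14 CPM in Tdt Control, 0.944 and 0.96 in Jmjd3 KO, and 0.818 and 0.442 in Utx KO, and fell by 1.59 ± 0.23 (adjusted p = 0.0288) with no overlap. edgeR's call was lost for Gm13394 without either Jmjd3 KO library or either Tdt Control library (adjusted p 0.0755 to 0.167), and Rdh12 without either Jmjd3 KO library, either Tdt Control library or Utx KO replicate 2 (adjusted p 0.0536 to 0.134).

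In other genes, also chosen after their values were seen, 1 knockout stood apart from all the remaining libraries. Kbtbd12, a member of a family of Kelch-repeat proteins, stood at 12.7 and 13 CPM in Tdt Control, 15 and 15.6 in Jmjd3 KO, and 1.82 and 1.63 in Utx KO. Utx KO was far below, and Jmjd3 KO lay above both controls. In the pool it fell by 1.32 ± 0.07 (edgeR adjusted p = 0.000679), but with offsets for transcript length it was -0.74 and not called (adjusted p = 0.0749). Gm20400, an antisense transcript, stood at 7.84 and 7.77 CPM in Tdt Control, 1.19 and 1.3 in Jmjd3 KO, and 10.2 and 9.15 in Utx KO. It was low in Jmjd3 KO and above the controls in Utx KO, and in the pool it fell by 1.17 ± 0.09 (adjusted p = 0.00293). The processed pseudogenes Gm7901, Gm9347 and Eif5al3-ps were high in Jmjd3 KO and near 0 elsewhere. Gm7901 stood at 0.289 and 0.0759 CPM in Tdt Control, 19.1 and 18.7 in Jmjd3 KO, and 0.167 and 0.153 in Utx KO. Gm9347 stood at 0.0658 and 0.0455 CPM in Tdt Control, 8.91 and 8.69 in Jmjd3 KO, and 0.0744 and 0.068 in Utx KO, and Eif5al3-ps at 0.171 and 0.228 CPM in Tdt Control, 14.2 and 13.7 in Jmjd3 KO, and 0.223 and 0.187 in Utx KO. These 3 rose in the pool by 3.19, 3.78 and 3.09 (adjusted p = 0.021, 0.00764 and 0.00213). Their parent genes share sequence with them, so the assignment of reads to them is uncertain. Leaving out any 1 library kept Kbtbd12, Gm20400, Gm9347 and Eif5al3-ps called, and the call was lost for Gm7901 without Jmjd3 KO replicate 1 or either Utx KO library (adjusted p 0.0702 to 0.10).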
